A study of Mus musculus with 24 samples.

Results

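The 6 phospholipase A2 genes Pla2g7, Pla2g16, Pla2g15, Pla2g6, Pla2g12a and Pla2g4a were taken by symbol from a table of read counts that held 12611 genes, and all 6 had a row and entered the test of 12427 genes that passed the filter on low counts. The counts came from bulk total RNA of microdissected lenses of CD1 mice, with no mutant allele or agent named in the labels. Fiber libraries of E14.5, E16.5 and E18.5 embryos and of P0.5 newborns were compared with epithelium libraries of the same 4 stages, with 3 libraries in each of the 8 groups. The series calls these biological replicates; the labels do not say how many lenses or animals entered a library, and the p-values measure the spread between these libraries, which may be technical.

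Phospholipases A2 cut the fatty acid at the sn-2 position of a phospholipid and leave a lysophospholipid. The family holds secreted, cytosolic, calcium-independent and lysosomal enzymes, enzymes that act on platelet-activating factor, and the HRASLS (PLAAT) enzymes, which also transfer acyl chains. In the lens, an epithelial sheet gives rise to fiber cells, and as these mature they lose their nuclei, mitochondria and endoplasmic reticulum. Enzymes of the PLAAT family are known to be needed for the breakdown of organelle membranes in lens fiber cells, Pla2g16 in mouse and a relative in zebrafish.

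On GRCm38 (mm10, the build in the submitters' processing notes), with GENCODE M21 gene models, all 6 are protein-coding. Pla2g7 lies at chr17:43568098-43612201 on the plus strand, Pla2g16 at chr19:7557459-7588545 on the plus strand, and Pla2g4a at chr1:149829618-149961290 on the minus strand. Pla2g15 lies at chr8:106150399-106164715 on the plus strand, Pla2g12a at chr3:129878606-129895825 on the plus strand and Pla2g6 at chr15:79286228-79328390 on the minus strand. No member shares exons with another gene of these models except Pla2g7, where 319 exon bases lie opposite the antisense gene 1700071M16Rik. The libraries are stranded per the labels, but no source used here states whether the counting used strand.

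The promoters of the 3 members that differed most between the tissues are shown from RefSeq (GRCm38.p6), 5′ to 3′ on the gene's strand, with the first 50 transcribed bases in capitals after 250 bases upstream. RefSeq lists Pla2g16 under the symbol Plaat3. The windows are chr17:43568201-43568500 (plus strand), chr19:7557209-7557508 (plus strand) and chr1:149961241-149961540 (minus strand). For Pla2g16 and Pla2g4a, each with 2 starts in RefSeq, the start listed first was taken. The whole Pla2g7 window lies downstream of the start of its GENCODE model (43568098). The region before that GENCODE start was not searched.
Pla2g7: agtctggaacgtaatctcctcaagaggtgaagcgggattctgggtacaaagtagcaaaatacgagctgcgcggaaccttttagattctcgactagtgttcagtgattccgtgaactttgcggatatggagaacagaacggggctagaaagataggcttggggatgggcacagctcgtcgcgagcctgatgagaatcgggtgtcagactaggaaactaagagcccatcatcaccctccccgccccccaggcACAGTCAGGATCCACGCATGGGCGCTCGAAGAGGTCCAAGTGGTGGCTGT
Pla2g16: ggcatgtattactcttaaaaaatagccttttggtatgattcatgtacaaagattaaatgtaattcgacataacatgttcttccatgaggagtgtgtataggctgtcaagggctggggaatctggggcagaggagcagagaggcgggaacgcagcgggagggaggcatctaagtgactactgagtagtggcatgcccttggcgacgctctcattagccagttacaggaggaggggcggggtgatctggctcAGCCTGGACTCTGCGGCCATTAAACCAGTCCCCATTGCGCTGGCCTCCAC
Pla2g4a: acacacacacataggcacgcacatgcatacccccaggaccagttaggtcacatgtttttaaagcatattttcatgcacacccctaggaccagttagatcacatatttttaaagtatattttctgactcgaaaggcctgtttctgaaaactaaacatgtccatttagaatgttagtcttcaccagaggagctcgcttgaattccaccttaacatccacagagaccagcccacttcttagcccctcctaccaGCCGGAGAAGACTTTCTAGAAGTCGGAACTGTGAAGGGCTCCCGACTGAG
These 3 windows held none of the letters GAANNTTC (a form of the core of a heat shock element), TGCTGAC (a part of the MAF recognition element), GTCACGTG (of the lysosomal CLEAR element), CACGTG (an E-box, which overlaps the previous one), TATAAA or CCAAT on either strand. Over 32851 promoters of the same length, these letters occurred in 7.86%, 4.67%, 2.25%, 7.15%, 13.6% and 37.4% in that order. Among the other members, GAANNTTC occurred once, in Pla2g6, at position -115 from the transcription start, and CCAAT occurred in Pla2g15, Pla2g6 and Pla2g12a. The window of the other RefSeq start of Pla2g4a, not shown, held TATAAA and CCAAT. Other forms of the heat shock element core were not searched. The capitals of the printed Pla2g4a window hold TTCTAGAA, in which GAA and TTC stand in the other order. Lack of a heat shock element core is therefore not shown for the 3 printed windows.

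Library totals were 13010174 to 21617737 counts in fiber and 7658794 to 11819117 in epithelium. Crystallin genes took 23.3 to 43.9% of counts in fiber against 1.66 to 4.29% in epithelium, and the ribosomal RNA gene Rn45s took 3.98 to 28.9% in fiber against 5.29 to 17.4% in epithelium. The second E18.5 fiber library held the 28.9% and stood apart from its group, with a chi-square per degree of freedom over genes of 226 and 304 against the other libraries, which differed from each other by 13.97. Without it the averaged log2 differences of fiber minus epithelium given below were 6.55 for Pla2g7, 4.17 for Pla2g16 and -5.10 for Pla2g4a, and no call of a member changed. Levels are given in CPM, counts relative to a library total scaled with TMM, which sets the bulk of genes equal between libraries; the median gene then stood at log2 -0.03 in fiber against epithelium, and at -1.23 when libraries were scaled by their totals alone. The summed CPM of 9 lens fiber markers was 106882 to 281077 in fiber and 3141 to 5927 in epithelium, and that of 7 lens epithelium markers was 159 to 295 in fiber and 1415 to 2222 in epithelium, with no marker of either list at 0 in a group.

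Pla2g7 and Pla2g16 were far higher in fiber than in epithelium, Pla2g4a was far lower in fiber, and Pla2g6, Pla2g12a and Pla2g15 differed by less than 2-fold, at each of the 4 stages. A gene is said to rise, fall or change where edgeR's quasi-likelihood test gave a Benjamini-Hochberg adjusted p under 0.05 over all genes and a difference of at least 2-fold. In the comparison averaged over stages 3 of 6 members passed, beside 37.8% of all genes (1945 higher and 2758 lower in fiber, but 587 and 7423 with totals alone and 949 and 4516 with crystallins and Rn45s left out of the totals). The same 3 passed in each stage taken alone, beside 33.3% of all genes for E14.5, 35% for E16.5, 41.6% for E18.5 and 42% for P0.5, so the share of members that passed was near that of all genes and the sizes below carry the description.

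**Figure D1:**
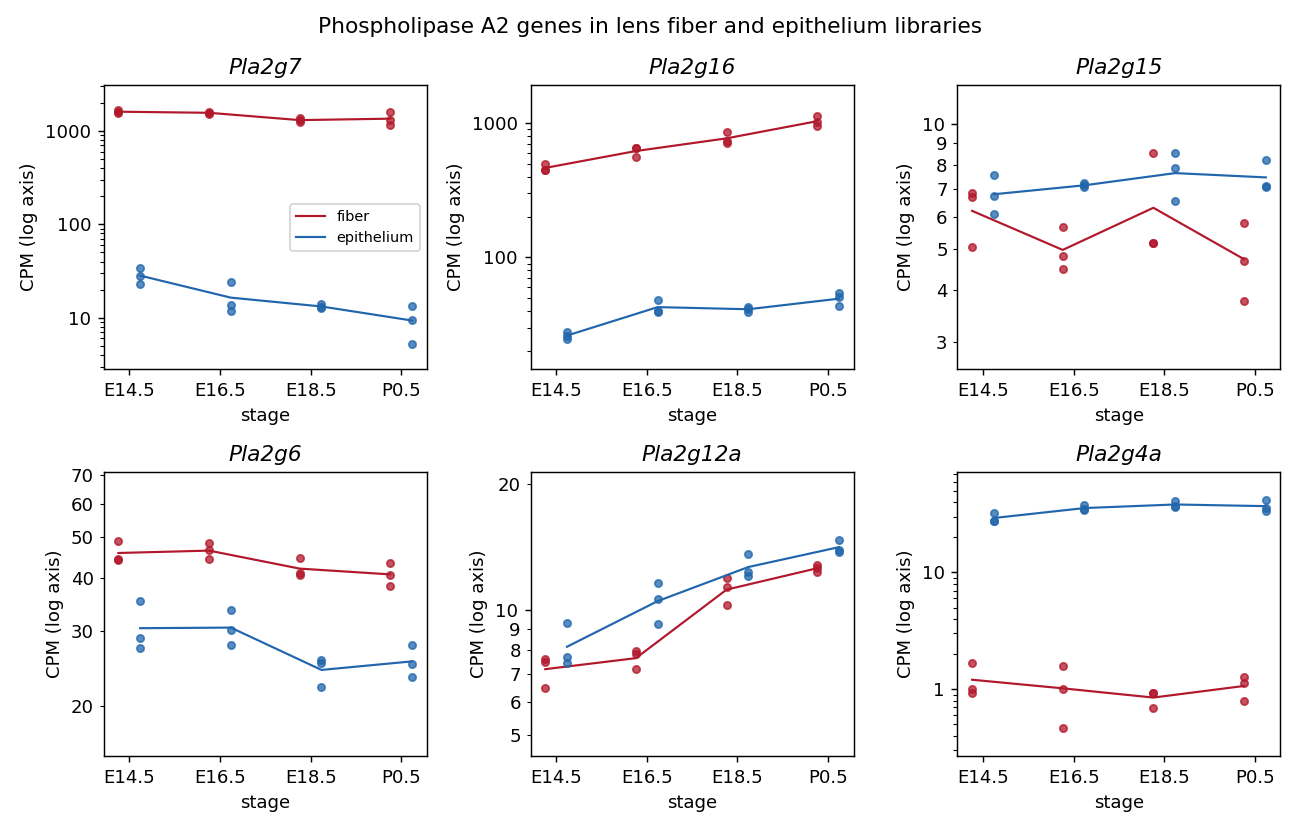
CPM of the 6 genes on log axes against stage, with 1 point per library and lines through the means of 3 libraries, for fiber (red, left of each tick) and epithelium (blue). All 12 fiber libraries lie above all 12 epithelium libraries for Pla2g7, Pla2g16 and Pla2g6 and below them for Pla2g4a, while the tissues overlap for Pla2g15 and Pla2g12a.

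Pla2g7 encodes the secreted acetylhydrolase that inactivates platelet-activating factor and also cleaves oxidised phospholipids. At E14.5 it had 1549, 1605 and 1662 CPM in fiber, against 28.0, 23.0 and 33.7 CPM in epithelium. At E16.5 the values were 1526, 1605 and 1555 CPM in fiber, against 11.7, 24 and 13.6 CPM in epithelium. Fiber libraries of these stages stayed within a narrow band, whereas 1 of the E16.5 epithelium libraries had about the level of E14.5. At E18.5 Pla2g7 had 1387, 1232 and 1294 CPM in fiber, against 14.0, 13.1 and 12.6 CPM in epithelium. At P0.5 it had 1315, 1160 and 1580 CPM in fiber, against 5.22, 9.55 and 13.2 CPM in epithelium. The tissues never overlapped, and the lowest fiber library (1160 CPM) stood far above the highest epithelium library (33.7 CPM).

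Averaged over stages, Pla2g7 was 93.0-fold higher in fiber (log2 6.54 ± 0.12 SE, edgeR adjusted p = 4.21e-24), the 11th highest difference of 12427 genes; scaled by library totals alone the log2 difference was 5.34. In the order of the stages the log2 difference was 5.82 ± 0.23, 6.55 ± 0.24, 6.62 ± 0.24 and 7.16 ± 0.25 (SE). In these bulk samples, fewer cells that express a gene and less of its RNA per cell cannot be told apart.

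Pla2g16 encodes an HRASLS-family phospholipase and acyltransferase bound to membranes. At E14.5 it had 451, 448 and 496 CPM in fiber, against 27.8, 24.8 and 25.9 CPM in epithelium. At E16.5 it had 565, 649 and 650 CPM in fiber, against 39.5, 48.5 and 39.8 CPM in epithelium. Both tissues stood above their own E14.5 libraries without overlap. At E18.5 it had 867, 711 and 739 CPM in fiber, against 41.4, 42.9 and 39.0 CPM in epithelium. At P0.5 it had 1019, 953 and 1140 CPM in fiber, against 43.2, 50.7 and 54.0 CPM in epithelium. In fiber the 4 stages did not overlap and followed their order in time; in epithelium E16.5 overlapped both E18.5 and P0.5, which did not overlap each other.

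The averaged difference of Pla2g16 was 17.9-fold higher in fiber (log2 4.16 ± 0.05 SE, edgeR adjusted p = 7.04e-27), which placed it 160th of all genes; scaled by library totals alone it was log2 2.96. Its log2 difference by stage was 4.15, 3.86, 4.23 and 4.39 from E14.5 to P0.5, with standard errors of 0.10 to 0.11.

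Pla2g4a encodes the calcium-activated cytosolic phospholipase A2 that releases arachidonate from membranes. At E14.5 it had 0.994, 0.935 and 1.69 CPM in fiber, against 27.4, 32.6 and 27.8 CPM in epithelium. At E16.5 it had 1.59, 0.998 and 0.467 CPM in fiber, against 37.8, 34.2 and 34.9 CPM in epithelium. The fiber values rest on few reads, 5 to 20 counts in each of the 12 libraries, against 346 to 755 counts in epithelium. At E18.5 it had 0.691, 0.931 and 0.922 CPM in fiber, against 37.0, 41.3 and 36.3 CPM in epithelium. At P0.5 it had 1.14, 0.798 and 1.26 CPM in fiber, against 33.8, 35.5 and 41.6 CPM in epithelium. Every fiber library was below every epithelium library, and in epithelium the E14.5 libraries lay below those of the later stages.

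Pla2g4a was 34.1-fold lower in fiber (log2 -5.09 ± 0.09 SE, edgeR adjusted p = 5.36e-24), the 99th lowest of 12427 genes; scaled by library totals alone the log2 difference was -6.29. In the order of the stages it was 24.3-, 35.04-, 44.9- and 35.4-fold lower in fiber.

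Pla2g6, the calcium-independent phospholipase A2 beta, had 38.4 to 49.0 CPM in fiber (median 44.2, n = 12) and 22.1 to 35.2 CPM in epithelium (median 27.6, n = 12). The libraries of the tissues did not overlap, but the difference was under 2-fold and its sign depended on the scaling: log2 0.66 ± 0.05 with TMM (SE, edgeR adjusted p = 1.56e-12), 0.06 with crystallins and Rn45s left out of the totals (adjusted p = 0.190), and -0.54 with totals alone (adjusted p = 6.10e-10). From E14.5 to P0.5 its level was 45.8 ± 2.71, 46.4 ± 2.03, 42.1 ± 2.12 and 40.8 ± 2.53 CPM in fiber, against 30.5 ± 4.20, 30.6 ± 2.96, 24.3 ± 1.88 and 25.4 ± 2.26 CPM in epithelium (SD, n = 3).

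Pla2g12a, a secreted phospholipase A2 of group XIIA, had 6.49 to 12.8 CPM in fiber (median 9.10) and 7.45 to 14.7 CPM in epithelium (median 11.8), with a log2 difference of -0.25 ± 0.05 (SE, edgeR adjusted p = 0.000177). Pla2g15, the lysosomal phospholipase A2, had 3.75 to 8.53 CPM in fiber (median 5.18) and 6.07 to 8.51 CPM in epithelium (median 7.11), with a log2 difference of -0.39 ± 0.09 (SE, adjusted p = 0.000306). Both were below 2-fold with TMM, and both passed with totals alone, at -1.45 for Pla2g12a and -1.60 for Pla2g15. The level of Pla2g12a from E14.5 to P0.5 was 7.20 ± 0.615, 7.65 ± 0.40, 11.2 ± 0.825 and 12.6 ± 0.257 CPM in fiber, against 8.14 ± 1.008, 10.5 ± 1.19, 12.6 ± 0.835 and 14.1 ± 0.495 CPM in epithelium (SD, n = 3). That of Pla2g15 was 6.19 ± 0.984, 4.99 ± 0.603, 6.30 ± 1.93 and 4.74 ± 1.012 CPM in fiber, against 6.79 ± 0.746, 7.13 ± 0.0852, 7.63 ± 1.002 and 7.45 ± 0.666 CPM in epithelium. Pla2g12a thus had its highest means at P0.5 in both tissues, and Pla2g15 had no such order. For Pla2g15, the fiber maximum of 8.53 CPM came from the third E18.5 library, where the other libraries of that group had 5.18 and 5.19 CPM.

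**Figure D2:**
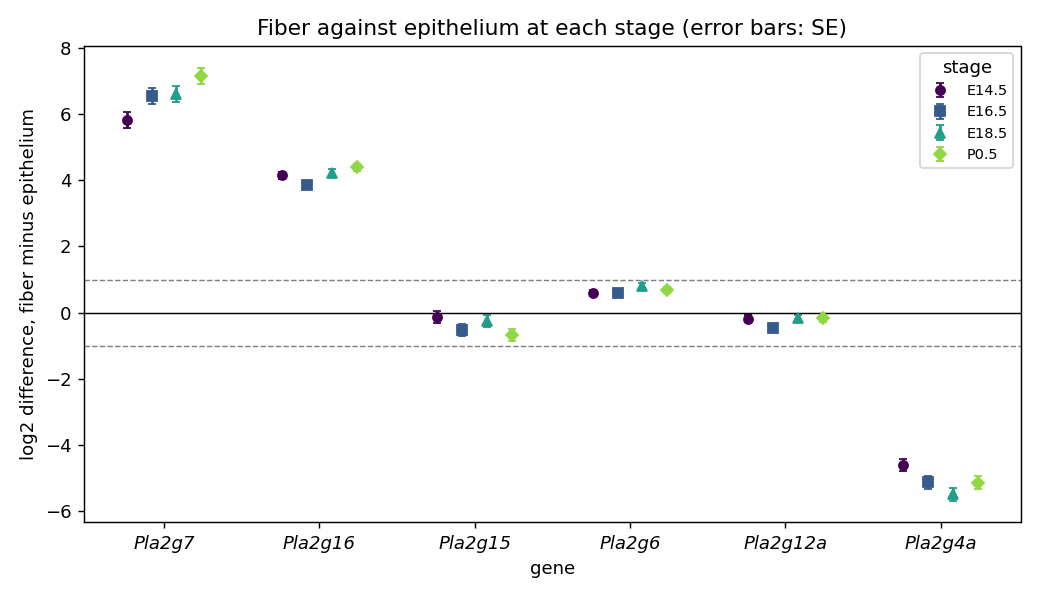
Log2 difference of fiber minus epithelium for each gene (horizontal axis) at the 4 stages, with SE bars and dashed lines at 2-fold. Pla2g7 is lowest for E14.5 (5.82) and highest for P0.5 (7.16), whereas Pla2g16 stays between 3.86 and 4.39 and Pla2g4a between -5.49 and -4.60.

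Across the time course each of 2 members changed in 1 tissue. Pla2g7 fell 3.0-fold in epithelium at P0.5 against E14.5 (log2 -1.59 ± 0.23 SE, edgeR adjusted p = 3.33e-06; 13.3% of all genes changed). In fiber its log2 difference over the same interval was -0.25 ± 0.18 (SE, adjusted p = 0.255). Pla2g16 rose 2.23-fold in fiber at P0.5 against E14.5 (log2 1.16 ± 0.09 SE, adjusted p = 2.54e-10; 11.9% of all genes changed), and its difference in epithelium, log2 0.92 ± 0.10 (SE, adjusted p = 7.93e-08), stayed under 2-fold. The rise of Pla2g16 in fiber was log2 0.60 when libraries were scaled by totals alone, and the epithelium value passed at 1.002 without the first P0.5 epithelium library and at 1.007 with totals alone.

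The test of whether the tissue difference itself changed between E14.5 and P0.5 was passed by Pla2g7 alone among the members, beside 11.7% of all genes. Its fiber to epithelium difference was wider at P0.5 by log2 1.34 ± 0.29 (SE, edgeR adjusted p = 0.000821), and 0.69 (adjusted p = 0.0349) with totals alone. For Pla2g16 the same test gave 0.24, with an interval of -0.04 to 0.52 (95%, adjusted p = 0.160), and for Pla2g12a 0.01, with an interval of -0.30 to 0.33. Pla2g12a had log2 0.80 ± 0.11 in fiber and 0.79 ± 0.10 in epithelium at P0.5 against E14.5 (SE, adjusted p = 2.48e-06 and 6.97e-07), under 2-fold in both. Over the same interval Pla2g6 had -0.17 in fiber and -0.26 in epithelium (adjusted p = 0.121 and 0.0181), Pla2g15 -0.41 in fiber and 0.13 in epithelium (adjusted p = 0.0850 and 0.508), and Pla2g4a -0.20 in fiber and 0.34 in epithelium (adjusted p = 0.641 and 0.0102), none of them a call.

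No member changed in a single step between neighbouring stages by edgeR or by DESeq2, although 12 of the 36 steps had an unadjusted p under 0.05. In fiber, 3.07% of all genes changed at E16.5 against E14.5, 2.63% at E18.5 against E16.5 and 0.539% at P0.5 against E18.5, and in epithelium 2.53%, 7.3% and 1.01% in the same steps. The Pla2g16 steps in fiber were log2 0.42, 0.31 and 0.42 (SE 0.09 each), with edgeR adjusted p of 0.00181, 0.0124 and 0.00668. The first step of Pla2g7 in epithelium was -0.76 ± 0.22 (SE, adjusted p = 0.0137), and it reached -1.16 only without the second E16.5 epithelium library.

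To compare genes with each other, mean CPM were divided by exon length in kilobases (exons of all transcripts merged). The sum over the 6 genes was 638, 647, 583 and 640 CPM per kilobase in fiber from E14.5 to P0.5 and 28.5, 28.7, 27.4 and 27.7 in epithelium. In fiber Pla2g7 supplied 86.6%, 83.1%, 77.1% and 72.6% of it, and Pla2g16 11.4%, 14.99%, 20.7% and 25.4% (n = 3 at each stage, SD at most 1.37 percentage points). These shares are a description with no test of their own, and they depend on the length used. In P0.5 fiber Pla2g16 had 162 and Pla2g7 465 CPM per kilobase of merged exons. Per kilobase of the longest transcript they had 294 and 645. In epithelium Pla2g7 supplied 34.0%, 19.2%, 16.6% and 11.3% and Pla2g16 14.4%, 23.2%, 23.5% and 27.9%, while Pla2g4a, at most 0.0294% in fiber, supplied 16.2% to 21.8%. In epithelium the order of the genes depends on the length used. At E16.5 Pla2g7 ranked second with 5.65 CPM per kilobase of merged exons, after Pla2g16 with 6.67. Per kilobase of the longest transcript Pla2g7 was behind Pla2g4a and Pla2g6 as well, at 7.83 against 10.3 and 9.08. The longest transcript of Pla2g4a has 3 exons, against 12 for Pla2g7 and 16 for Pla2g6, so its length may not be that of the main transcript.

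**Figure D3:**
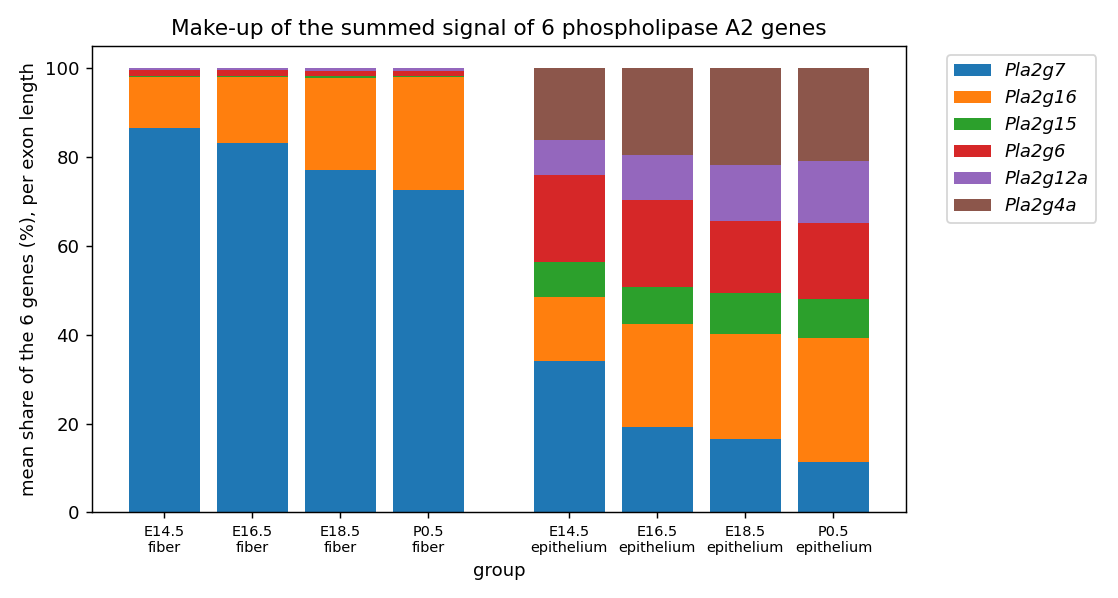
Mean share of each gene in the summed CPM per kilobase of the 6 genes, in percent, for the 4 fiber groups (left) and the 4 epithelium groups (right), 3 libraries each. Pla2g7 and Pla2g16 fill nearly the whole bar in fiber, with Pla2g16 at 25.4% in the P0.5 group, whereas all 6 genes are visible in epithelium.

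The low levels in the opposite tissue were set beside those of tissue markers. Pla2g7 in epithelium was 1.76%, 1.05%, 1.01% and 0.691% of its fiber level from E14.5 to P0.5. Over the 9 fiber markers the same percentage had a median of 2.83, 2.77, 1.57 and 1.92 and a range at P0.5 of 0.563 to 4.01. Crygd, a gamma crystallin, stood at 1.24%, 1.02%, 0.968% and 0.571%. Bfsp1, the beaded filament protein filensin, stood at 1.81%, 1.60%, 1.30% and 0.822%. Both, and Crygb, were lower at P0.5 than at E18.5, whereas Cryba1, Crybb3, Mip, Lim2, Bfsp2 and Hsf4 were higher. Pla2g7 thus lay within the range of the fiber markers at all 4 stages, and Pla2g16, at 5.63%, 6.86%, 5.32% and 4.75%, lay near or above its upper end (5.86%, 6.57%, 3.34% and 4.01%). Among the E16.5 epithelium libraries the second had the highest summed level of the 9 markers (5577 CPM) and the highest Pla2g7, and among those of P0.5 the first had the lowest of both (3699 CPM for the markers). Among those of E14.5 the third had the highest of both (4050 CPM for the markers). At E18.5 the orders differed, as the first library had the lowest marker sum (3768 CPM) and the highest Pla2g7 (14.0 CPM). The mean summed level of the markers in epithelium was 5082 CPM at P0.5 and 3524 CPM at E14.5. In fiber the mean sum of the same markers was also higher at P0.5, with 278702 CPM against 110083 CPM at E14.5. The part of fiber RNA in the epithelium libraries in the epithelial values of either gene, and in the fall of Pla2g7, was not tested.

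In the other direction, Pla2g4a in fiber was 4.12%, 2.86%, 2.22% and 2.88% of its epithelium level, against a median of 9.15%, 6.89%, 6.49% and 5.71% over 7 epithelium markers. Cdh1, the epithelial cadherin, stood at 6.17%, 2.73%, 3.62% and 3.87%. Crygd, Bfsp1 and Cdh1 were chosen from their lists after their values were seen. Epithelium libraries also held more RNA of markers of other cell types: 10 endothelium markers summed to 11.3 to 38.5 CPM in fiber and 254 to 480 CPM in epithelium, and 6 macrophage markers to 1.38 to 4.44 CPM in fiber and 8.99 to 21.6 CPM in epithelium, with no marker at 0 in a group. The sums were 5.79 to 26.9 CPM in fiber and 106 to 347 CPM in epithelium for 7 mural cell markers, and 26.6 to 111 CPM in fiber and 364 to 723 CPM in epithelium for 6 mesenchyme markers, of which 1 was at 0 in P0.5 fiber. Most of the mesenchyme sum in epithelium came from Pdgfra, with 577 CPM of a mean sum of 690 CPM at E14.5 and 374 of 396 CPM at P0.5. Averaged over stages, 10 of 10 endothelium, 7 of 7 mural cell, 5 of 6 macrophage, 5 of 6 mesenchyme, 6 of 6 pigment cell and 9 of 10 retina and ciliary margin markers were lower in fiber. The part of these cell types in the levels of Pla2g4a was not tested.

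**Figure D4:**
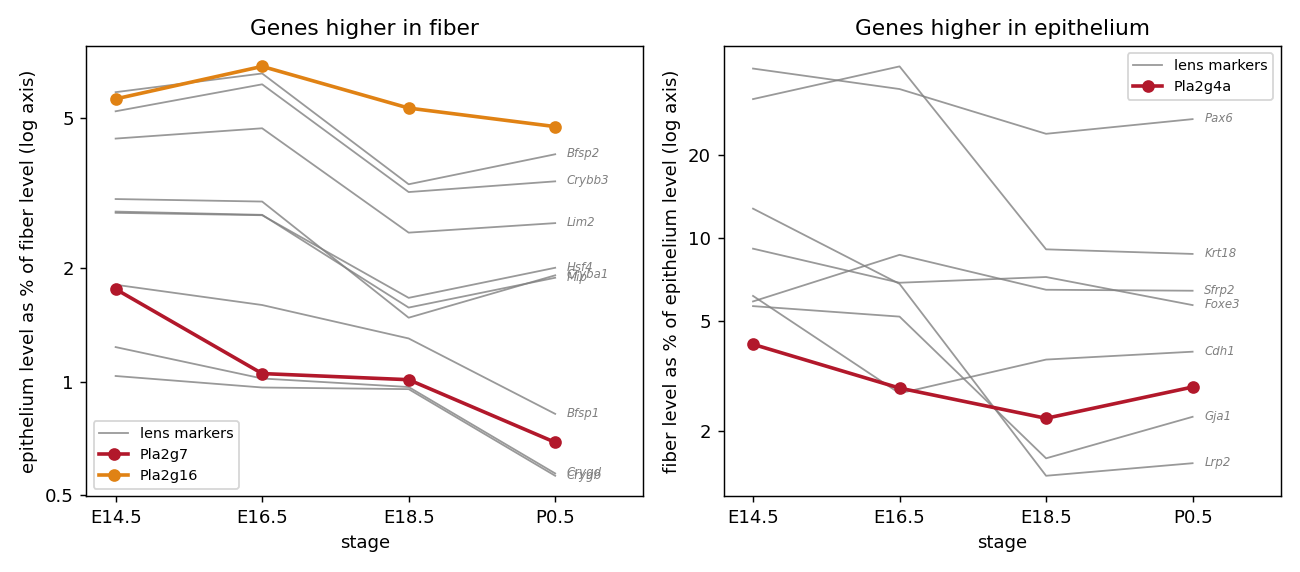
Left, level in epithelium as a percentage of the level in fiber (log axis) by stage for Pla2g7, Pla2g16 and 9 fiber markers. Right, level in fiber as a percentage of the level in epithelium for Pla2g4a and 7 epithelium markers; group means of 3 libraries. Pla2g7 stands at 0.691% at P0.5, between Crygd (0.571%) and Bfsp1 (0.822%), in a fiber marker range of 0.563% to 4.01%. Pla2g16 runs near or above the highest marker.

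In a list of 31 other genes of the phospholipase A2 superfamily and associated proteins such as Plaa, 16 were in the table. Of the 16, 15 were tested in fiber against epithelium averaged over stages. Of these, 6 were higher in fiber, 2 were lower and 7 did not pass, with a median log2 difference of 0.60, beside 15.7% higher, 22.2% lower and a median of -0.03 over all genes. Higher were Hrasls5 (log2 5.07), a relative of Pla2g16 in the HRASLS family, its paralog Hrasls (1.42), the patatin-like lipases Pnpla3 (1.43), Pnpla6 (1.37) and Pnpla7 (1.18), and the secreted enzyme Pla2g2c (1.33). Of the 6, only Hrasls5 passed when crystallins and Rn45s were left out of the totals or totals alone were used, where the list's median was 0.00085 and -0.60. Hrasls and Pla2g2c were low in all groups, with highest group means of 3.69 and 2.18 CPM. Lower in fiber were Prdx6, a peroxiredoxin with phospholipase A2 activity (-1.30), and the secreted enzyme Pla2g5 (-4.30); with either of these scalings Pafah2 (-0.64 with TMM) was lower as well. Under 2-fold with TMM were also Plaa (0.61), Pnpla2 (0.60), Pnpla8 (0.59), and the platelet-activating factor acetylhydrolase subunit genes Pafah1b3 (0.49), Pafah1b2 (0.39) and Pafah1b1 (0.29), whose signs turned with totals alone. Pla2g4b did not pass the filter on low counts and was not tested.

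Hrasls5 was all but limited to fiber. Its mean level in fiber was 4.72 ± 0.621, 10.01 ± 1.94, 4.58 ± 2.31 and 12.01 ± 3.74 CPM from E14.5 to P0.5, against 0.138 ± 0.120, 0.284 ± 0.197, 0.133 ± 0.106 and 0.325 ± 0.0654 CPM in epithelium (SD, n = 3). In fiber it rose at E16.5 against E14.5 (log2 1.10, edgeR adjusted p = 0.00550), fell at E18.5 against E16.5 (-1.11, adjusted p = 0.00503) and rose at P0.5 against E18.5 (1.35, adjusted p = 0.00549). The fall at E18.5 no longer reached 2-fold without the second E16.5 library (-0.93), the second E18.5 library (-0.94) or the third E18.5 library (-0.88).

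Pla2g5 was far lower in fiber at the later stages. Its mean level in fiber was 0, 0.213 ± 0.143, 1.41 ± 0.349 and 2.32 ± 0.299 CPM from E14.5 to P0.5, against 0.412 ± 0.420, 1.65 ± 0.604, 38.5 ± 7.22 and 41.0 ± 2.89 CPM in epithelium (SD, n = 3). The E14.5 fiber libraries held 0 counts, which allows up to 0.199 to 0.280 CPM at 3 counts per library (counting error only), and the averaged log2 difference of -4.30 includes this stage, where the fitted value depends on the prior count. Pla2g5 rose 23.9-fold in epithelium at E18.5 against E16.5 (log2 4.58 ± 0.23 SE, edgeR adjusted p = 2.66e-12). In the same step the summed level of 10 retina and ciliary margin markers was 785 CPM at E18.5 against 70.7 CPM at E16.5 in epithelium, and that of 6 pigment cell markers 158 against 4.75 CPM. The part of retina, ciliary margin and pigment cells in the rise of Pla2g5 was not tested.

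**Figure D5:**
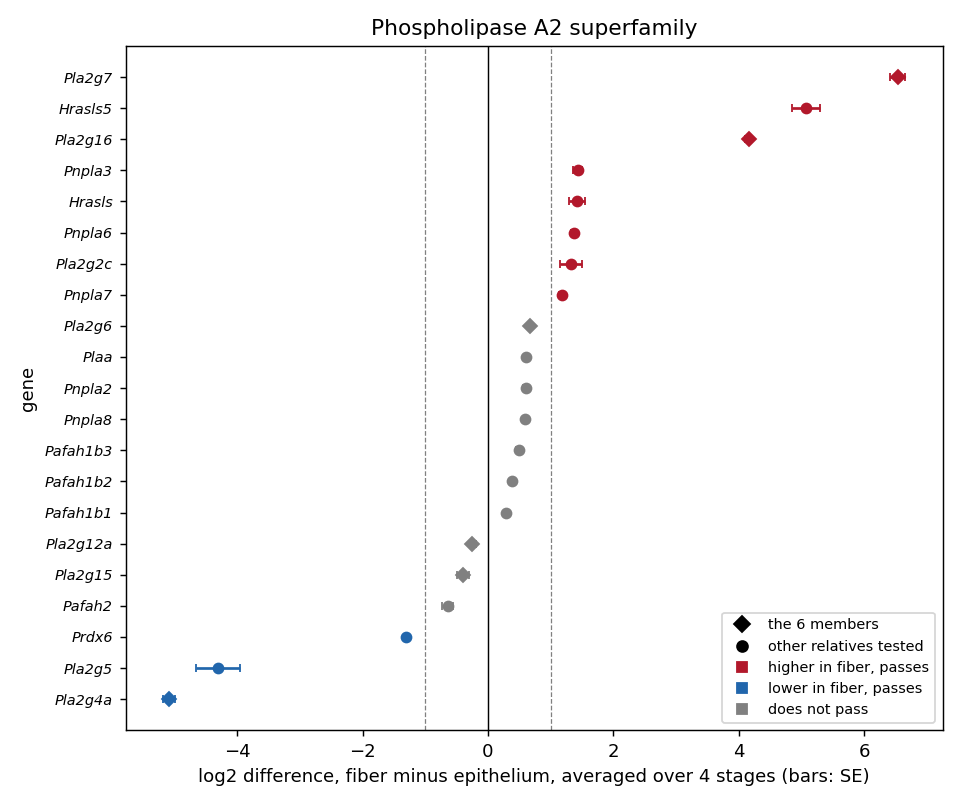
Log2 difference of fiber minus epithelium averaged over 4 stages (horizontal axis, SE bars, dashed lines at 2-fold). Diamonds are the 6 members and circles 15 other genes of the superfamily list, colored by whether they pass. Pla2g7 (6.54), Hrasls5 (5.07) and Pla2g16 (4.16) lie far to the right, and Pla2g5 (-4.30) and Pla2g4a (-5.09) far to the left.

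Over the time course Pnpla3 rose in both tissues at P0.5 against E14.5, by log2 1.34 ± 0.14 in fiber and 1.93 ± 0.16 in epithelium (SE, edgeR adjusted p = 2.12e-08 and 8.84e-10). Pla2g2c rose in epithelium (log2 1.64 ± 0.37 SE, adjusted p = 0.000590) on few reads, 5 to 7 counts per library at E14.5 and 19 to 23 at P0.5. Hrasls5 rose in fiber (1.34 ± 0.27 SE, adjusted p = 0.000176). With Pla2g5, which rose in both tissues, 3 of the 15 tested relatives rose in fiber, beside 6.69% of all genes, and 3 in epithelium, beside 10.1%. In epithelium 10 of 10 retina and ciliary margin markers (median log2 4.09) and 6 of 6 pigment cell markers (median 3.94) rose over the same interval, and their part in the rises of Pla2g2c, Pnpla3 and Pla2g5 was not tested. With totals alone, Pla2g5 was the only relative still higher in fiber, and Pafah2 and Pnpla6 were lower.

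Of 28 other enzymes that cut phospholipids, 5 were higher in fiber, 8 lower and 15 did not pass averaged over stages (median log2 0.15). These counts, and those of the lists that follow, stand beside 15.7% of all genes higher and 22.2% lower in that comparison, and nothing particular to a list is read from them. Higher were the phospholipase C genes Plcb1 (1.84) and Plcg2 (1.48), the lysophospholipase Abhd4 (1.499) and the acid sphingomyelinase gene Smpd1 (1.45). Lower in fiber were Plce1 (-3.64), Pld2 (-2.72), Plch1 (-2.37) and the monoacylglycerol lipase Abhd6 (-2.17). All 8 lower genes were also lower with crystallins and Rn45s left out of the totals, where Plcb1 was the only one still higher, and with totals alone none was higher.

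Genes that rebuild phospholipids showed 5 higher, 5 lower and 23 not passing of 33 tested (median log2 0.02). Mboat1, a lysophospholipid acyltransferase, had the largest of these differences, log2 4.23 ± 0.05 (SE, edgeR adjusted p = 2.15e-27), with 359 ± 18.3 CPM in fiber and 25.6 ± 0.864 CPM in epithelium at E14.5, and 558 ± 14.6 CPM in fiber and 23.7 ± 2.53 CPM in epithelium at P0.5 (SD, n = 3). Agpat1 (1.09), Pemt (1.36) and Selenoi (1.03) were higher with TMM, and no longer passed with totals alone or with crystallins and Rn45s left out. Acsl5 (-3.07), the arachidonate-preferring acyltransferase Mboat7 (-1.90), Agpat2 (-1.42) and Lpcat4 (-1.40) were lower in all 3 of these.

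In a list of the arachidonate and platelet-activating factor pathway, 5 of 18 tested genes were higher in fiber and 4 lower (median log2 -0.0031). The lipoxygenase gene Alox15 had 0.700, 6.71, 16.52 and 19.7 CPM in fiber from E14.5 to P0.5, against 0.122, 0.134, 0.232 and 0.282 CPM in epithelium (means, n = 3; log2 5.001 ± 0.27 SE, edgeR adjusted p = 1.32e-14). Alox12 (2.45) and the prostaglandin receptor genes Ptgfr (2.19) and Ptger1 (1.98) were also higher, although the receptors did not pass with totals alone. Lower in fiber were Hpgd, which inactivates prostaglandins (-4.67), the prostacyclin synthase gene Ptgis (-3.67) and Cyp2j6 (-2.96). Annexins, calcium-dependent binders of phospholipid among which Anxa1 is a known inhibitor of phospholipase A2 activity, had 0 higher and 4 lower of 8 tested in edgeR averaged over stages (median log2 -0.93), and 1 higher both at E14.5, with 5 lower, and at E16.5, with 4 lower. The averaged log2 difference was -3.59 for Anxa1, -3.95 for Anxa11 and -1.36 for Anxa2. In the averaged comparison DESeq2 also called 0 annexins higher, and 1 had a higher level at an unadjusted p under 0.05.

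In a list of genes of organelle loss and the lysosome, 9 of 20 tested were higher in fiber, 0 lower and 11 did not pass averaged over stages (median log2 0.70), beside 15.7% of all genes higher and 22.2% lower. At P0.5 alone 8 were higher and 3 lower. Dnase2b, the DNase of fiber nuclei (6.61), Hsf4, a heat shock factor needed for fiber maturation (5.46), Mitf (2.80) and Tfeb (1.94) led it. With totals alone 3 were higher and 8 lower, so the count depends on the scaling; with TMM, 8 had a lower level at an unadjusted p under 0.05 and DESeq2 called 0 lower, while Dnase2b, Hsf4 and Mitf passed under each. Dnase2b had 53.0, 141, 278 and 269 CPM in fiber from E14.5 to P0.5, against 0.625, 1.55, 3.27 and 1.83 CPM in epithelium (means, n = 3).

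The genes with the most similar patterns were found by the root mean square difference of the 8 group means of log2 CPM, each taken around the gene's own mean, among 9671 genes. Pla2g7 was nearest to Gje1, a connexin-like gene (0.43), Kcnj6, a potassium channel gene (0.47), and Thsd4 (0.47). Pla2g16 was nearest to Smco3, Cryaa, the alpha A crystallin gene, and Nol3 (0.19 each), and Pla2g4a to Tenm2 (0.21), Itga3 (0.21) and Grm7 (0.22). The patterns of the others were nearest to Aup1 (0.04 for Pla2g6), Ypel3 (0.11 for Pla2g12a) and Tgif2 (0.07 for Pla2g15). All groups share the same libraries, so these values describe likeness in these 24 libraries.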

How the data were processed

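Read counts per gene, 12611 genes in 24 libraries, were deposited by the authors as a single table. The submitters' processing notes name mm10, HTSeq 0.6.1, Cufflinks 2.2.1 with Cuffdiff, TopHat2 2.0.13 and Trim Galore 0.4.1, with no order of use, and per the labels' protocols the libraries were stranded total RNA after ribosomal RNA depletion. From these raw counts, genes with low counts were removed (filterByExpr, minimum count 10, total 15), which left out 184 genes and kept 12427. edgeR 4.0.16 (R 4.3.3) with TMM scaling and its quasi-likelihood test was fitted to all 8 groups, with Benjamini-Hochberg adjustment over all genes in each of 14 comparisons. The fit was also run on simulated counts, in which the tissues shared the same mean proportions apart from a set of changed genes. That run could not test the scaling between tissues that differ in their share of crystallins. Replicates were compared by chi-square per degree of freedom (3.74 to 304), so no library was a copy of another. The members and the gene lists were chosen with earlier results of these data known. Named are the 6 members and all other genes of the superfamily list in the table. For likeness the 3 nearest patterns are named (fewer are given for 3 members). Of each other list, up to 4 higher and 4 lower genes that pass and reach a group mean of 5 CPM are named. Hsf4 and Dnase2b serve as a scale. Alternatives were other scalings (RLE, totals alone, totals without crystallins and Rn45s), filters, DESeq2 1.42.0, fewer groups, replicate blocks and leaving out each library. Intervals cover the spread between libraries, and floors cover counting error only.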

Additional observations from a re-analysis of the deposited data

Results flagged for a closer look

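The fiber to epithelium difference of Pla2g7 was wider at P0.5 than at E14.5 by log2 1.34 ± 0.29 (SE, edgeR adjusted p = 0.000821), a tested difference between the stages in the effect of tissue. Pla2g7 had 1352 ± 213 CPM at P0.5 and 1605 ± 56.6 CPM at E14.5 in fiber, and 9.33 ± 4.01 CPM at P0.5 and 28.3 ± 5.34 CPM at E14.5 in epithelium (SD, n = 3), so its mean was lower at P0.5 in both tissues. The value was 1.06 to 1.69 when each of the 12 libraries involved was left out in turn.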

How the results depend on the processing

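Of 1349 alternative values for the 84 pairs of a member and a comparison, 1331 kept the call and 18 did not. Among those that kept it, the sign changed in 37 where neither value passed, and in the 4 of Pla2g6 given below. RLE, DESeq2, both filters, the fit of only the groups compared and the replicate block (84 of 84 values, and 36 of 36 with the block within stages) changed no call of a member; with the block the averaged difference of Pla2g7 was 6.54. Whether replicate numbers pair the tissues was not settled by these values. The deviations of same-numbered fiber and epithelium libraries correlated only weakly, at -0.07 to 0.22, and 3 of 12 pairs were above 0.1. Of the 12 fiber libraries, 7 correlated best with the epithelium library of their own number.

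Scaling changed most. With library totals alone, Pla2g15 passed as lower in fiber on average (-1.60) and for E16.5 (-1.60), E18.5 (-1.72) and P0.5 (-2.12), Pla2g12a on average (-1.45) and for E16.5 (-1.54), E18.5 (-1.66) and P0.5 (-1.62), and the change of the tissue difference passed for Pla2g15 (-1.17) and Pla2g4a (-1.17). Pla2g16 over the time course gave 1.007 in epithelium and 0.60 in fiber, and the widening for Pla2g7 was 0.69. Pla2g6 turned to -0.54 on average, with E16.5 at -0.48, E18.5 at -0.69 and P0.5 at -0.77. Relatives and other list genes that turned in the averaged comparison were Pafah1b1 (-0.92), Pafah1b2 (-0.82), Pafah1b3 (-0.72), Plaa (-0.60), Pnpla2 (-0.60), Pnpla7 (-0.019), Pnpla8 (-0.62, and -0.34 over time in fiber), Agpat1 (-0.12) and Selenoi (-0.18). With crystallins and Rn45s left out of the totals, Pla2g15 passed at E16.5 (-1.08) and P0.5 (-1.33), Pla2g12a at E16.5 (-1.02), and Pafah1b1 (-0.31), Pafah1b2 (-0.21) and Pafah1b3 (-0.11) turned. Genes higher and lower in fiber numbered 1945 and 2758 with TMM, 587 and 7423 with totals alone, and 949 and 4516 without crystallins and Rn45s. Totals alone gave 8010 genes on average (4703 with TMM), 7365 for E16.5 (4350), 9094 for E18.5 (5168), 8965 for P0.5 (5220), 2535 over time in fiber (1482) and 3398 for the change of the tissue difference (1452). The fit of only the groups compared called 31 genes in fiber at P0.5 against E18.5, and the main fit 67. The cause of these shifts was not tested.

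Leaving out 1 library gave 0.84 to 1.002 for Pla2g16 in epithelium over time, which passed only without the first P0.5 library. Patterns nearest by Pearson's r shared 0 of 3 genes for Pla2g7, Pla2g16 and Pla2g4a and 1 of 3 for the others. Depth limits Pla2g4a in fiber, with 5 to 20 counts per library.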
